A study of Arabidopsis thaliana with 8 samples.

Results

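Transcripts that were higher in replicate 4 than in replicate 1 of both the ttg1 mutant and wild-type Ler were followed across 8 arrays of developing Arabidopsis thaliana seeds. The members were chosen by measured values: probe sets, control sets excluded, in which replicate 4 minus replicate 1 was at least 1.0 on the log2 scale within ttg1 and also within Ler. The rule was met by 66 of 22746 probe sets (0.29%). The vicilin-like storage protein gene PAP85 was left out by its symbol, as other storage, oleosin and LEA symbols would have been, which gave 65 members. A single gene is listed for 30 of them, and 35 have no gene listed in the platform annotation used here and appear by probe set identifier or in counts. The symbols could not be applied to these 35, so genes of the kinds left out may be among them. AtLEA4-1, the vicilin-like AT2G28490 and the oleosin gene AT3G01570 stayed among the members because their listed symbols do not begin with VCL, OLEO or LEA.

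ttg1 mutant seeds gave 4 biological replicates and seeds of the wild type Ler (Landsberg erecta) another 4, each hybridised to an Affymetrix ATH1 array of its own. Seeds came out of siliques whose embryos ranged between the globular and the walking-stick stage, and both genotypes carry the same stage label. The labels name no allele beyond ttg1, no plant age and no stage for a single replicate. TTG1 encodes a WD40-repeat protein needed for seed coat pigment, mucilage and trichomes.

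Seed filling is the phase in which the embryo, and for a time the endosperm, lay down storage globulins, albumins and oil. Storage proteins reach protein storage vacuoles, where proteases cut them into their mature chains, and oil is kept in bodies coated with oleosins. Transcripts of these genes climb steeply while the embryo grows, so whole-seed RNA from slightly different harvests can differ widely in them. LEA proteins belong to the later drying phase.

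Each value below is a log2 value relative to the probe set's own median over the 8 arrays, so arrays can be compared within a probe set but levels of different probe sets cannot. Over all probe sets the array medians lay between -0.013 and 0.028, and precision is limited by how few arrays there are. The array of ttg1 replicate 4 stood apart most, with an SD of its within-group deviations of 0.245 over all probe sets, against 0.157 to 0.184 on the other ttg1 arrays and 0.115 to 0.173 on the Ler arrays. Replicate 4 of ttg1 enters the choice of members, so no membership can be given without it. In whole seeds, fewer cells of a type and less RNA per cell cannot be told apart.

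PAP85, the storage protein gene left out by its symbol, measured -1.05, 0.19, -0.19 and 2.17 on the ttg1 arrays of replicates 1 to 4, and on the Ler arrays in the same order -1.02, -0.41, 0.29 and 2.28. Replicate 4 was thus the highest array for PAP85 in both genotypes. Other storage protein genes are covered here only where a gene is listed, 4 of 12 with PAP85 included, and these differed. Further storage genes may be among the members with no listed gene, so these few do not stand for storage genes as a whole. The member AT2G28490 had a replicate 4 minus replicate 1 difference of 2.28 in ttg1 and 2.86 in Ler. The others measured by name did not reach 1.0 in both genotypes. AT1G03890, a cruciferin-like storage globulin gene, had a replicate 4 minus replicate 1 difference of 0.49 in ttg1 and 2.45 in Ler, and the vicilin-like AT2G18540 had 0.80 and 0.25. The stage of a replicate is not in the labels, so the members are described here by their rule, as transcripts high in replicate 4, and not as a time course.

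**Figure D1:**
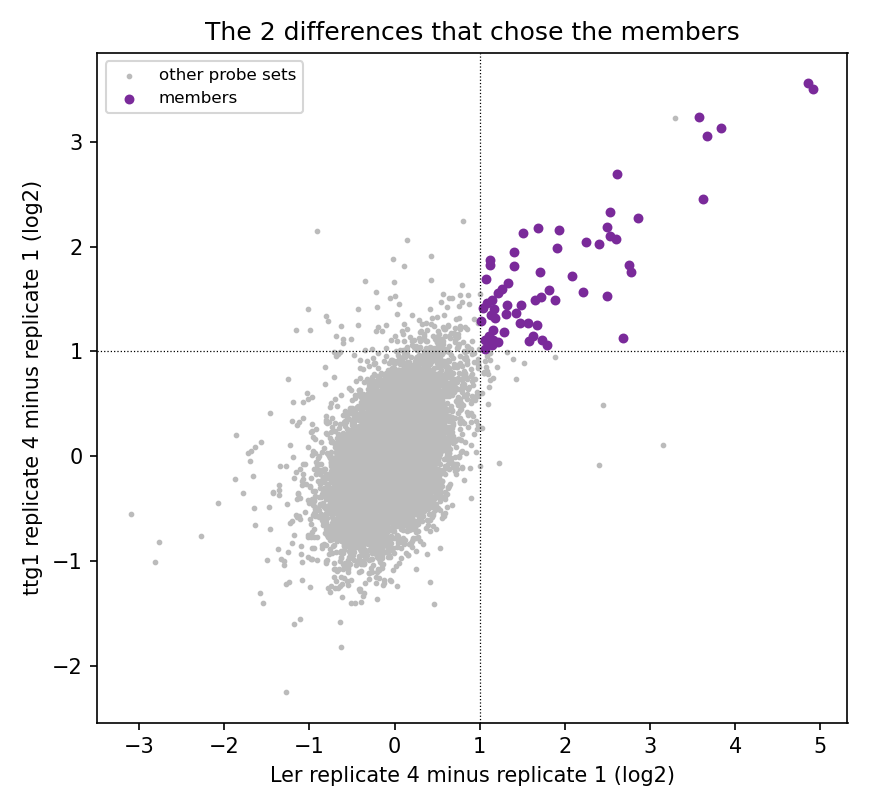
Each point is a probe set, with replicate 4 minus replicate 1 of ttg1 on the y axis and of Ler on the x axis (log2); dotted lines mark 1.0. The 65 members lie above both lines, reaching 3.56 in ttg1 and 4.92 in Ler, and the grey point beside the upper members is PAP85.

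The differences that chose the members are given as a description. Over the 65 members the replicate 4 minus replicate 1 difference had a median of 1.53 in ttg1 (1.03 to 3.56) and of 1.58 in Ler (1.01 to 4.92). Over all probe sets the medians were 0.01 in ttg1 and 0.00 in Ler. The difference was at least 1.0 in 1.03% of all probe sets in ttg1 and in 0.409% in Ler. It was larger in ttg1 for 27 members and larger in Ler for 38. In 14 members it was at least 2 on the log2 scale in both genotypes, and in 25 the smaller of both differences was below 1.2, close to the threshold.

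At the threshold, AT5G03350 was the last member, with 1.29 in ttg1 and 1.01 in Ler. It encodes a legume-lectin family protein. The members 260784_at (1.03 and 1.06) and 253270_at (1.42 and 1.04) came next. Just outside lay 262040_at, with 1.55 in ttg1 and 0.999 in Ler. BETA-VPE, the vacuolar processing enzyme that cuts seed storage proteins, also lay just outside, with 0.997 and 1.32. OLEO3, an oleosin of oil bodies, had 1.02 and 0.993.

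**Figure D2:**
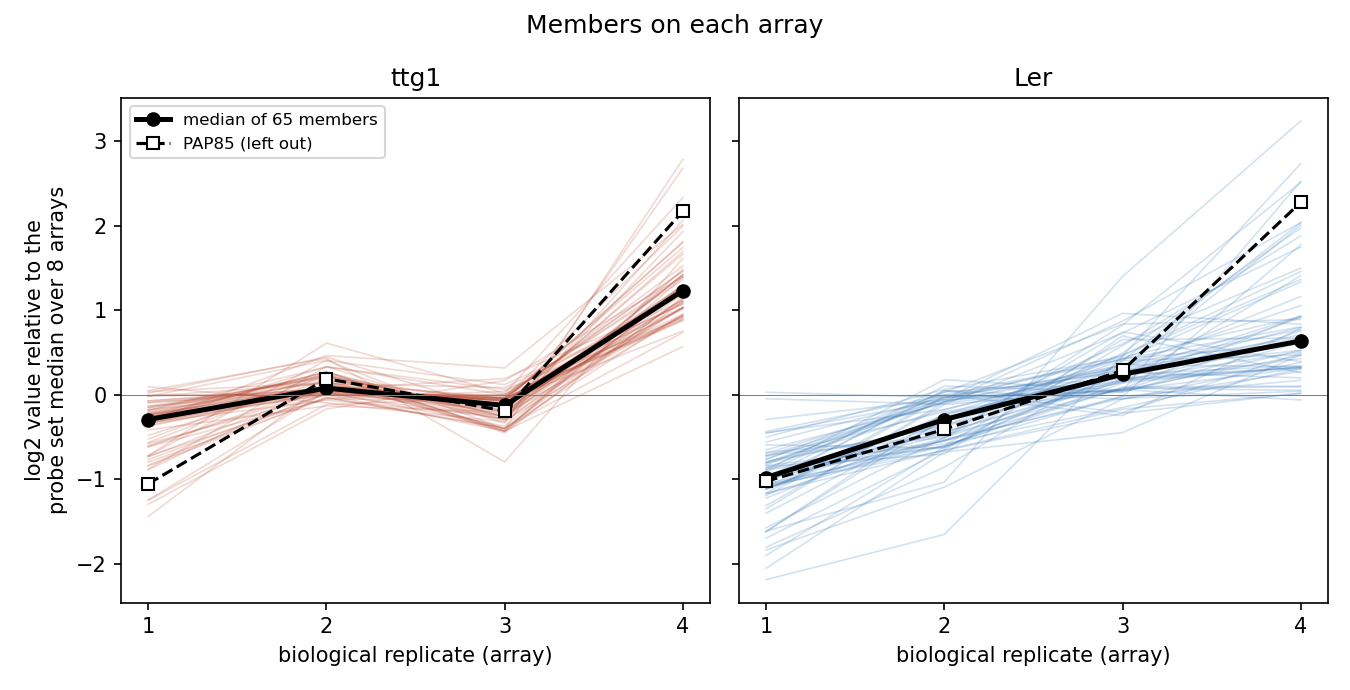
Thin lines are the 65 members, the thick line is their median and the dashed line is PAP85, plotted by replicate for ttg1 (left) and Ler (right) as log2 values relative to each probe set's median over 8 arrays. Lines join arrays for reading only; the medians are -0.29, 0.08, -0.13 and 1.23 in ttg1 and -0.98, -0.29, 0.24 and 0.64 in Ler.

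The members were spread differently over the arrays of the genotypes. Their median was -0.29, 0.08, -0.13 and 1.23 in ttg1 replicates 1 to 4, against -0.98, -0.29, 0.24 and 0.64 on the Ler arrays in the same order. The highest ttg1 array exceeded the next by a median of 1.15 over the members, against 0.43 in Ler, where the medians over all probe sets were 0.107 in ttg1 and 0.0787 in Ler. At the lower end the gap between the lowest and the next array was 0.24 in ttg1 and 0.62 in Ler, against 0.113 and 0.0778 over all probe sets. Replicate 4 was the highest ttg1 array in 65 of 65 members (34.7% of all probe sets) and the highest Ler array in 58 (25.4%). Replicate 1 was the lowest ttg1 array in 47 members (26.4% of all probe sets) and the lowest Ler array in 62 (31.1%). The rule used replicates 1 and 4, so these positions and gaps are a description and nothing is read from them.

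The members with the widest differences have no gene listed. Probe set 265095_at had, for replicates 1 to 4, -0.88, 0.33, -0.33 and 2.68 in ttg1 and -1.61, -1.03, 1.40 and 3.24 in Ler. Probe set 253767_at had -0.72, 0.41, -0.41 and 2.78 in ttg1 and -2.18, -1.65, 0.46 and 2.73 in Ler. In both, Ler replicates 3 and 4 were high and Ler replicates 1 and 2 low, whereas in ttg1 replicate 4 alone was high. Probe sets 253895_at, 253894_at and 249082_at had differences of 3.24, 3.13 and 3.05 in ttg1 and of 3.57, 3.83 and 3.67 in Ler. The 35 members with no listed gene had median differences of 1.59 in ttg1 and 1.73 in Ler, against 1.47 and 1.32 in the 30 with 1 gene, and they hold 10 of the 14 members with at least 2 in both genotypes.

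**Figure D3:**
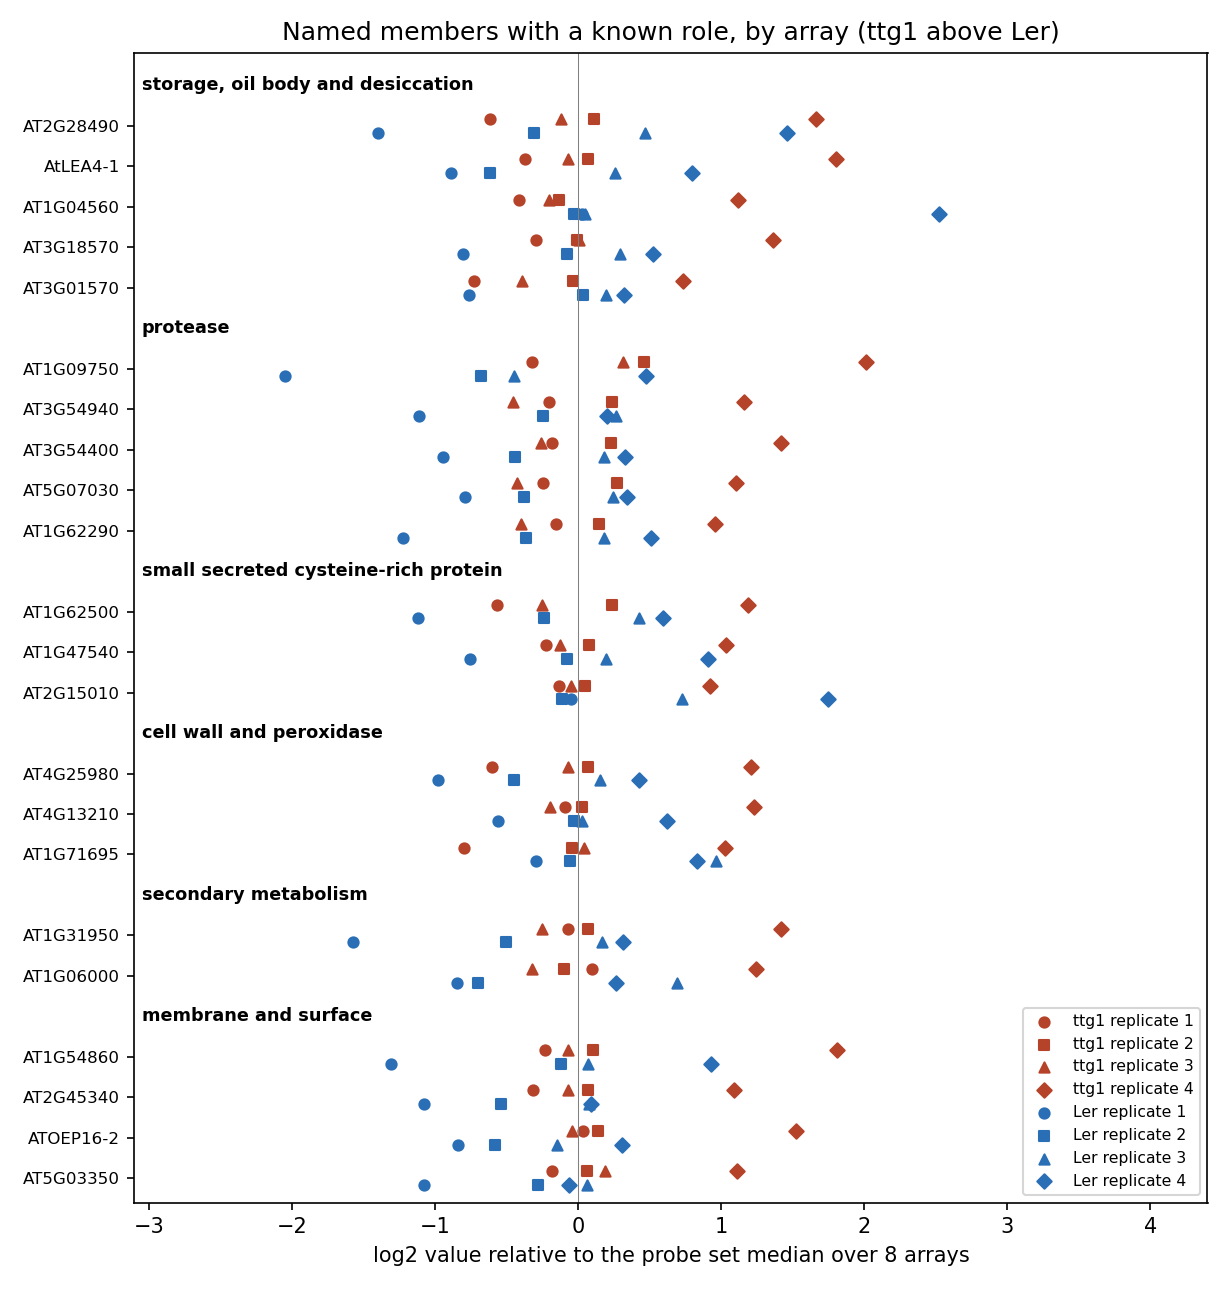
Values of the 22 named members with a known role, on each array, as log2 values relative to the probe set median over 8 arrays, with ttg1 (red) above Ler (blue) and 1 symbol per replicate. Replicate 4 of ttg1 is the rightmost red symbol for all 22 genes, and red and blue symbols overlap in each row.

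Of the 30 named members, 22 were placed in groups by what their proteins are generally known to do, after their values had been seen. The first group holds 5 genes of storage, oil bodies and desiccation. AT2G28490, a vicilin-like globulin, had, for replicates 1 to 4, -0.61, 0.12, -0.12 and 1.66 in ttg1 and -1.40, -0.31, 0.47 and 1.46 in Ler. AtLEA4-1, a late embryogenesis abundant protein, had in the same order -0.37, 0.07, -0.07 and 1.80 in ttg1 and -0.89, -0.61, 0.26 and 0.80 in Ler. On the arrays that the rule did not use, both genes had replicate 3 below replicate 2 in ttg1 and above it in Ler.

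The other 3 genes of that group are 2 oleosins and a membrane protein. The oleosin family gene AT3G18570 had -0.29, -0.004, 0.004 and 1.36 in ttg1 and -0.80, -0.08, 0.29 and 0.53 in Ler. AT3G01570, also an oleosin gene, had -0.72, -0.03, -0.39 and 0.74 in ttg1 and -0.76, 0.03, 0.20 and 0.32 in Ler. AT1G04560 encodes an AWPM-19-like membrane protein, a family linked to the hormone abscisic acid. It had -0.42, -0.13, -0.20 and 1.12 in ttg1 and 0.03, -0.03, 0.05 and 2.52 in Ler. Its Ler replicates 1 to 3 lay within a narrow band and only replicate 4 was high, unlike in the other 4 genes.

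Proteases formed a group of 5 genes. Aspartic proteases, which in plants include vacuolar and secreted enzymes, are encoded by 4 of them, and AT3G54940 encodes a papain-type cysteine protease. AT1G09750 had -0.32, 0.46, 0.32 and 2.02 in ttg1 and -2.05, -0.68, -0.45 and 0.47 in Ler. Its differences were 2.33 in ttg1, the widest of the named members in that genotype, and 2.53 in Ler, where AT2G28490 had a wider one of 2.86. Each ttg1 array lay above the Ler array of the same number. AT1G62290, another aspartic protease, had -0.15, 0.15, -0.40 and 0.96 in ttg1 and -1.22, -0.36, 0.18 and 0.51 in Ler.

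The remaining proteases were alike in their arrays. AT3G54400 had -0.18, 0.23, -0.25 and 1.42 in ttg1 and -0.94, -0.44, 0.18 and 0.33 in Ler. AT5G07030 had -0.24, 0.27, -0.43 and 1.10 in ttg1 and -0.79, -0.38, 0.24 and 0.34 in Ler. AT3G54940 had -0.20, 0.24, -0.45 and 1.16 in ttg1 and -1.11, -0.24, 0.26 and 0.20 in Ler. In these 3 genes and in AT1G62290, ttg1 replicate 3 was below ttg1 replicate 1, and Ler replicates 3 and 4 were both above Ler replicates 1 and 2. All 5 protease transcripts had replicate 3 below replicate 2 in ttg1 and above it in Ler.

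Small secreted cysteine-rich proteins gave 3 members. AT1G62500 belongs to the family of lipid-transfer proteins, protease inhibitors and 2S albumins. It had -0.56, 0.24, -0.25 and 1.19 in ttg1 and -1.12, -0.24, 0.43 and 0.59 in Ler. AT1G47540, a trypsin inhibitor, had -0.22, 0.08, -0.13 and 1.03 in ttg1 and -0.76, -0.08, 0.19 and 0.91 in Ler. The thionin family gene AT2G15010 had -0.13, 0.05, -0.05 and 0.92 in ttg1 and -0.05, -0.11, 0.73 and 1.75 in Ler. AT2G15010 thus reached a higher value on the Ler than on the ttg1 array of replicate 4, which the other genes of the group did not.

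Cell wall and peroxidase genes gave 3 members, with differences between 1.32 and 1.83 in ttg1 and between 1.12 and 1.41 in Ler. The peroxidase gene AT4G25980 had -0.60, 0.07, -0.07 and 1.21 in ttg1 and -0.98, -0.44, 0.16 and 0.43 in Ler. AT1G71695, another peroxidase, had -0.80, -0.04, 0.04 and 1.03 in ttg1 and -0.29, -0.05, 0.96 and 0.83 in Ler. AT4G13210, a pectate lyase-like gene of pectin breakdown, had -0.09, 0.03, -0.19 and 1.23 in ttg1 and -0.56, -0.03, 0.03 and 0.62 in Ler. For AT1G71695 the highest Ler array was replicate 3, so the array order within Ler was not the same for all members.

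Genes of secondary metabolism gave 2 members. AT1G06000, a flavonol rhamnosyltransferase, had 0.10, -0.10, -0.32 and 1.25 in ttg1 and -0.85, -0.70, 0.70 and 0.26 in Ler. AT1G31950, a terpene synthase family gene, had -0.07, 0.07, -0.25 and 1.42 in ttg1 and -1.57, -0.50, 0.17 and 0.32 in Ler. In ttg1 both were high in replicate 4 alone, and in Ler both were low in replicates 1 and 2.

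The last group holds 4 membrane and surface proteins. ATOEP16-2, a seed form of an outer plastid envelope channel, had 0.04, 0.14, -0.04 and 1.52 in ttg1 and -0.84, -0.58, -0.15 and 0.31 in Ler. AT1G54860, a GPI-anchored membrane glycoprotein, had -0.23, 0.11, -0.07 and 1.81 in ttg1 and -1.31, -0.12, 0.07 and 0.93 in Ler. AT2G45340, a leucine-rich repeat receptor kinase, and the lectin AT5G03350 had differences of 1.40 and 1.29 in ttg1 and of 1.17 and 1.01 in Ler. On the replicate 4 arrays all 4 genes were higher in ttg1 than in Ler. Most members were so too, with a median ttg1 minus Ler difference of 0.47 in replicate 4 over the 65.

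The other 8 named members are given without a role. AT3G63040 had -0.83, 0.03, -0.37 and 1.27 in ttg1 and -1.19, -0.03, 0.42 and 1.33 in Ler, differences of 2.10 and 2.53. AT5G01300 followed with 1.72 in ttg1 and 2.09 in Ler. The ttg1 differences of AT5G55620, AT4G10270, AT3G17680, AT1G65900, AT5G01075 and AT5G17960 lay between 1.06 and 1.69 and their Ler differences between 1.06 and 1.57. All 30 named members are protein-coding genes.

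**Figure D4:**
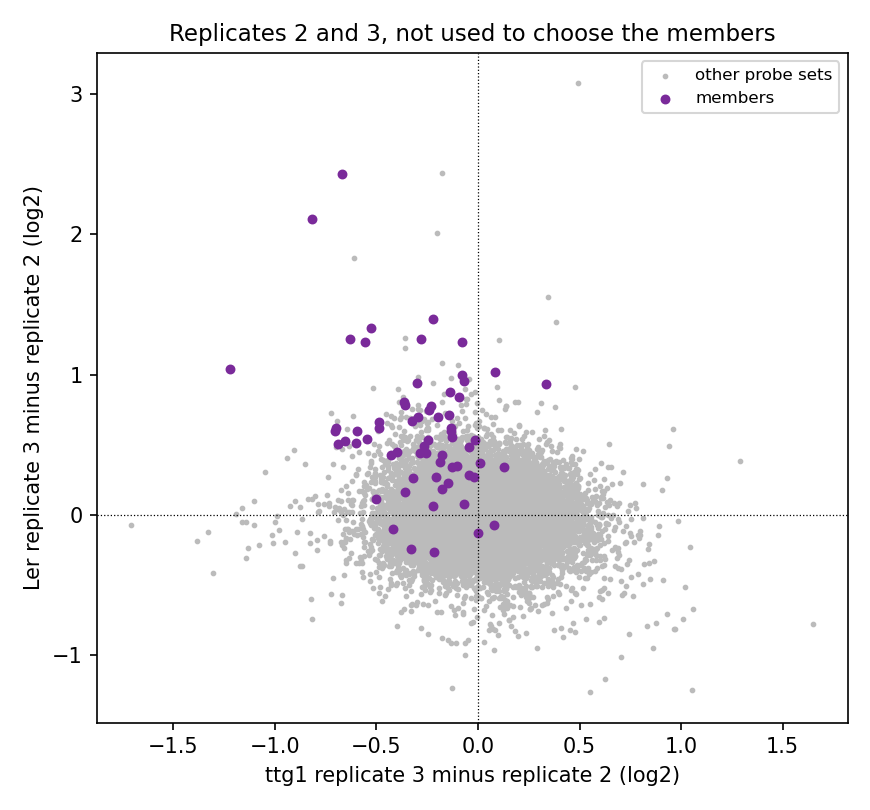
Each point is a probe set, with replicate 3 minus replicate 2 of ttg1 on the x axis and of Ler on the y axis (log2). Of the 65 members (purple), 56 lie in the upper left part, below 0 in ttg1 and above 0 in Ler, while the other probe sets (grey) centre near 0.

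The values of replicates 2 and 3 did not enter the rule. In ttg1 replicate 3 was below replicate 2 in 59 of 65 members (43.6% of all probe sets), with a median difference of -0.24. In Ler replicate 3 was above replicate 2 in 60 of 65 members (48.4% of all probe sets), with a median difference of 0.54. The same members thus differed between these arrays in opposite directions in the genotypes. Over all probe sets the medians were 0.03 in ttg1 and -0.01 in Ler. The members share arrays and move together, so the counts are not 65 separate observations.

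Both signs held together in 56 of 65 members, or 86.2%, against 21.6% of all probe sets. The reverse, replicate 3 above replicate 2 in ttg1 and below it in Ler, was found in 2 members, 260088_at (0.08 in ttg1 and -0.07 in Ler) and 260716_at (0.0001 and -0.13), against 29.5% of all probe sets. Replicate 3 was above replicate 2 in both genotypes in 4 members (26.8%) and below it in both in 3 (22.0%). A difference of -0.5 or lower in ttg1 was found in 14 members (1.0% of all probe sets) and a difference of at least 0.5 in Ler in 38 (1.19%). PAP85 showed the same signs, with -0.38 in ttg1 and 0.70 in Ler.

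Among the members, 265095_at had the widest Ler difference, 2.43, with -0.67 in ttg1. The widest ttg1 difference, -1.22, was that of 260869_at, which had 1.04 in Ler. Of the named genes, AT5G07030 had -0.70 in ttg1 and 0.62 in Ler, and AT3G54940 had -0.69 and 0.51. AT1G06000 had -0.22 in ttg1 and 1.40 in Ler, and AT5G55620 had -0.56 and 1.23. These genes include proteases and a glycosyltransferase, so the opposite signs were not limited to storage genes.

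The 4 members with replicate 3 above replicate 2 in both genotypes were 253902_at, AT5G03350, AT1G71695 and AT3G18570. Probe set 253902_at had 0.34 in ttg1 and 0.94 in Ler, AT1G71695 had 0.08 and 1.02, and AT5G03350 had 0.13 and 0.34. The 3 members with replicate 3 below replicate 2 in both were 261769_at, 255007_at and 248520_at, with -0.42, -0.22 and -0.33 in ttg1 and -0.10, -0.26 and -0.25 in Ler.

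The shared difference between replicates 3 and 2, with genotype as a term, was tested with limma on the 4 arrays concerned. No member and no other probe set passed the Benjamini-Hochberg adjusted threshold of 0.05 (0 of 65 members, 0.0% of all probe sets; adjusted p of every member 0.9997 in limma). At an unadjusted p under 0.05 there were 4 members (253902_at, AT1G71695, 248520_at and 253895_at), or 6.15%, against 4.15% of all probe sets. The fit averages the difference over both genotypes, so opposite signs cancel and widen its error, and its lack of calls says nothing about the opposite signs above. It has 1 residual degree of freedom, and of 50 simulated log2 changes of 1 it called 0, of 50 changes of 2 it called 37. Whether the differences in ttg1 and Ler differ from each other could not be tested, since each rests on 1 pair of arrays.

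**Figure D5:**
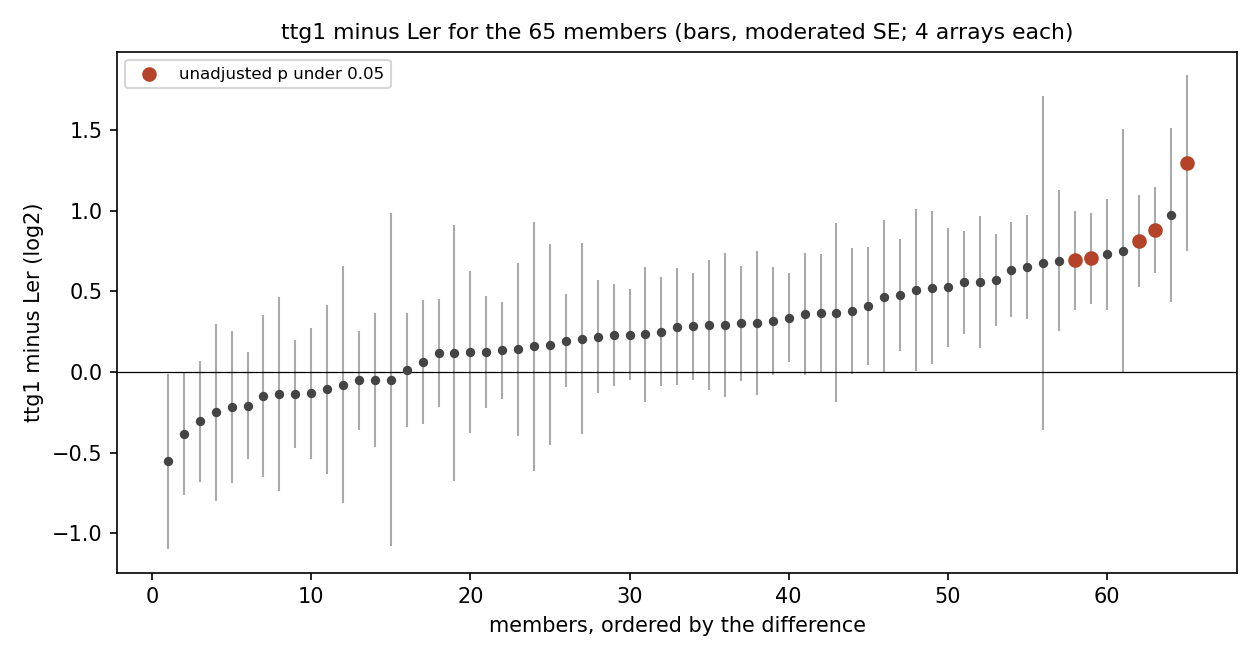
The difference ttg1 minus Ler on the log2 scale for each of the 65 members, in ascending order, with bars for the moderated standard error of limma (4 arrays per genotype). Red points mark the 5 members with an unadjusted p under 0.05; none passed the adjusted threshold.

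Loss of TTG1 was set against the wild type to find transcripts that depend on it, and the rule did not use this contrast. No member passed the test: 0 of 65 were higher and 0 lower in ttg1 at a Benjamini-Hochberg adjusted p under 0.05 in limma, against 1.76% higher and 3.96% lower (5.72% in all) of all 22746 probe sets. At an unadjusted p under 0.05 there were 5 members, all higher in ttg1, or 7.69%, against 23.0% of all probe sets. In no member did all 4 ttg1 values lie on one side of all 4 Ler values, which held for 14.8% of all probe sets. The rule sets replicates 1 and 4 at least 1.0 apart within each genotype, which favours overlap, so nothing is read from this count. The rule picks probe sets that vary widely within each genotype, and the standard error of the test grows with that spread. The within-group SD of the members had a median of 0.74 in ttg1 and 0.69 in Ler, against 0.17 and 0.12 over all probe sets, and the standard error of the genotype difference 0.38 against 0.11.

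The genotype difference of the members had a median of 0.28 on the log2 scale (-0.55 to 1.29), against 0.03 over all probe sets. This median follows single arrays: it was -0.08 without ttg1 replicate 4, -0.02 without Ler replicate 1, 0.56 without Ler replicate 4 and 0.46 without ttg1 replicate 1. It was -0.05 with replicates 2 and 3 only and -0.02 with array weights, so its direction is not settled. A missed threshold does not show that the members were equal in the genotypes.

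The 5 members with the smallest p-values are named although none passed, and were singled out after their values were seen. Probe set 258204_at had -0.02, 0.41, 0.12 and 1.07 in ttg1 and -1.07, -0.66, -0.22 and 0.02 in Ler, a difference of 0.88 ± 0.27 (SE, 4 arrays per genotype, adjusted p 0.0832 in limma). After quantile normalization of the deposited values its difference was 1.03 ± 0.28 (adjusted p 0.0481 in limma), and it was the 1 member then called, against 7.84% of all probe sets. That step acts on values already centred per probe set and forces the same distribution of deviations on every array, so the call is given with that limit. AT5G01075 had -0.02, 0.13, 0.09 and 1.08 in ttg1 and -1.16, -0.65, -0.17 and 0.02 in Ler, a difference of 0.81 ± 0.28 (adjusted p 0.126 in limma). In 258204_at and AT5G01075, ttg1 replicate 1 overlapped with Ler replicate 4 and the other ttg1 arrays lay above all Ler arrays. The differences of 254363_at and AT1G65900 were 0.70 ± 0.28 and 0.69 ± 0.30, with adjusted p of 0.171 and 0.206 in limma.

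AT1G09750 had the widest genotype difference of the members, 1.29 ± 0.55, with ttg1 arrays averaging 0.62 ± 0.99 and Ler arrays averaging -0.67 ± 1.04 (SD, n = 4 arrays; adjusted p 0.189 in limma). On the replicates that the rule did not use, it had 0.46 and 0.32 in ttg1 and -0.68 and -0.45 in Ler. In the limma fit of these 4 arrays its difference was 0.95 ± 0.12 (SE, adjusted p 0.00476). It was the 1 member called (1.54% of members), against 4.24% of all probe sets. This fit leaves out replicates 1 and 4, and with them the spread by which the members were chosen. AT1G09750 was singled out here by its genotype difference over all arrays, which include these 4. Its call in the smaller fit is therefore not independent of that choice, and the fit of all arrays did not call it. The widest difference in the other direction was that of AT1G04560, at -0.55 ± 0.54 (adjusted p 0.574 in limma).

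The protease group had genotype differences between 0.32 and 1.29 and the membrane and surface group between 0.51 and 0.73, with 0 of 5 and 0 of 4 genes called in limma. The storage, oil body and desiccation group had differences between -0.55 and 0.47, and the cysteine-rich group between -0.38 and 0.23, also with none called in limma. None of these groups was tested as a group.

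Genes of related pathways were set beside these values, from lists chosen with earlier results of these data known. Of 12 storage protein genes 4 were measured by name, and of 8 oil body genes 2, with none higher or lower in ttg1 in limma. The median replicate 4 minus replicate 1 difference of the storage genes was 1.54 in ttg1 and 2.65 in Ler, with PAP85 and the member AT2G28490 included, and that of the oil body genes was 1.24 and 1.04, with the member AT3G01570 as 1 of the 2 genes. Both medians are thus partly set by the rule. The 4 measured genes of late embryogenesis and dormancy out of 11 had medians of -0.05 in ttg1 and 0.13 in Ler. Of 19 maturation regulators 4 were measured, with medians of 0.30 and 0.09. Among them EEL, a bZIP factor of seed maturation, had 0.92 in ttg1 and 0.26 in Ler, and BBM, an AP2-type embryo factor, 0.68 and 0.66. The 2 measured genes of fatty acid synthesis, the acyl-ACP thioesterases FATA and FATB, had 0.26 and -0.23 in ttg1 and -0.08 and -0.50 in Ler. The sugar transporter gene SWEET11 had 0.22 in ttg1 and -0.14 in Ler.

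Markers of other tissues and processes were also higher in replicate 4 than in replicate 1 in some cases, with larger differences in ttg1. The photosynthesis genes LHCB4.1, a light-harvesting protein, and RCA, the Rubisco activase, 2 of 9 measured, had 1.001 and 1.03 in ttg1 and 0.59 and -0.09 in Ler. Their mean ranged from -0.28 to 0.73 over the ttg1 arrays and from -0.25 to -0.005 over the Ler arrays. AUR1, a mitotic kinase and the 1 measured cell division gene of 5, had 1.02 in ttg1 and 0.40 in Ler. YAB3, one of 2 measured silique wall markers out of 9, had 0.94 in ttg1 and 0.69 in Ler, and the other, ALC, 0.03 and -0.26. Their part in the members' values was not tested.

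The 4 measured endosperm markers of 12, IKU1, IKU2, AGL62 and AGL28, had differences between 0.06 and 0.26 in ttg1 and between -0.15 and 0.10 in Ler. Of 20 seed coat markers 6 were measured, with median differences of 0.03 in ttg1 and -0.07 in Ler, although 4 of them were lower in ttg1 than in Ler in limma. No endosperm or seed coat marker met the rule of the members. The 4 measured reference genes of 6 had median differences of 0.16 in ttg1 and -0.01 in Ler.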

How the data were processed

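Per the labels, RNA from 8 seed samples was biotinylated and put on Affymetrix ATH1 arrays. The deposited log2 values were made by the authors with RMA, per the submitters' processing notes, with no version given; RMA corrects background, quantile normalizes and summarises probes. The deposited values of a probe set are centred, with medians over its 8 arrays no further than 5e-07 from 0, as the values show. Larger values were read as more signal, on base 2. Signal over background is unknown.

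The 22810 probe sets include 64 controls, left out. Genes came from the platform annotation (1 gene for 13513 probe sets, several for 503, none listed for 8730), with 13436 matched to RefSeq TAIR10.1 and all 30 named members among them. Roles are general knowledge and in no file. Fits used limma 3.58.1 in R 4.3.3 (lmFit, eBayes, two-sided, Benjamini-Hochberg over 22746 probe sets); standard errors are moderated. The labels call the replicates biological but do not say that they grew separately, so p-values cover only the spread among these arrays. On simulated data, the genotype fit recovered 46 of 50 probe sets changed by 1 and called 6 of 22546 unchanged ones. The changed probe sets were drawn from all probe sets, whose standard error had a median of 0.11, against 0.38 in the members. The recovery rate for probe sets as variable as the members was not measured.

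Genotypes share replicate numbers. Over the 22680 probe sets that did not meet the rule, deviations of same-numbered arrays correlated at 0.0155, 0.0281, -0.301 and 0.438 for replicates 1 to 4, so the numbers were not taken as pairs. The members and gene lists were chosen with earlier results of these data known. By the naming rule, members with 1 listed gene are named if among the largest differences, called between genotypes, on a list, at the threshold, or widest with 1 sign in replicates 2 and 3; members with no listed gene if among the 5 largest; and the widest non-members of each list. All other members and probe sets named, the role groups included, were singled out after their values were seen. The alternatives were other normalizations, variance models, thresholds, a replicate block and the omission of arrays. A filter on dim probe sets needs levels and was not run.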

Additional observations from a re-analysis of the deposited data

Results flagged for a closer look

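A single array far from the other 3 of its genotype was looked for in each member, with Dixon's test on the gap to the nearest array. Of 130 groups of 4 arrays 10 were past its critical value, 9 of them on ttg1 replicate 4 and 1 on Ler replicate 4; chance flags about 1 in 20 groups. This count was not made over all probe sets, where ttg1 replicate 4 also stood apart most. The members were chosen by a high replicate 4, so these flags were favoured by the choice. The rate of 1 in 20 does not apply to them, and they are given as values only. On ttg1 replicate 4 these were AT1G54860 at 1.81, ATOEP16-2 at 1.52, AT5G01300 at 1.46, AT4G13210 at 1.23, AT5G01075 at 1.08, 260784_at at 1.02, AT3G17680 at 1.02, AT2G15010 at 0.923 and 250620_at at 2.06. On Ler replicate 4 it was AT1G04560, at 2.52 against 0.03, -0.03 and 0.05 on the other Ler arrays.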

How the results depend on the processing

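The number of members was 108 with a threshold of 0.8, 40 with 1.2, 26 with 1.5 and 14 with 2.0, and 30 with 1 value per gene, where probe sets without a listed gene drop out. Quantile normalization gave 48 members, 47 of them shared, and centring of each array 65, all shared. The former was applied to RMA values already centred per probe set, so it forces the same distribution of deviations on every array. Leaving out AtLEA4-1, AT2G28490 and AT3G01570 too, by synonym or list symbol, a choice made after seeing the data, gave 62, which still hold the oleosin AT3G18570. No paired design is given by the labels; with the replicate number as a block 7 members were higher in ttg1 (249082_at, AT1G09750, ATOEP16-2, AT5G01075, 258204_at, 254363_at and AT5G03350), and over all probe sets 687 were higher and 1283 lower, against 400 and 900 without it. The block takes out the spread between replicate numbers by which the members were chosen. Quantile normalization called 1 member higher (258204_at, adjusted p 0.0481 in limma) and replicates 2 and 3 only 1 (AT1G09750). No member was called in limma when any 1 array was left out, with robust eBayes, array weights, centring, no moderation or a threshold of 0.01; the smallest adjusted p then ranged from 0.0557 without Ler replicate 4 to 0.245 without moderation. Over all probe sets 786 were higher with array weights, 168 higher and 409 lower without moderation, and 112 and 414 at 0.01. Leaving out 1 array gave 164 to 401 higher and 509 to 854 lower, with the lowest counts without Ler replicate 2; without Ler replicate 1 there were 233 and 535 and without Ler replicate 3 190 and 548. The median genotype difference of the members ranged from -0.08 to 0.56 when 1 array was left out. Replicate 3 was below replicate 2 in ttg1 in 61 members and above it in Ler in 60 under both quantile normalization and centring, against 50.1% and 49.2% of all probe sets under the first and 48.8% and 49.0% under the second. The causes of these shifts were not tested. The planned filter on dim probe sets could not be applied to centred values, so weak and strong transcripts could not be told apart.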

Other observations

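The named members were short genes: their median gene length in RefSeq TAIR10.1, introns included, was 1584 bp, against 2118 bp over the 12443 probe sets with 1 protein-coding gene. This was seen in 30 genes and was not tested.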
